A study of Mus musculus with 12 samples.

Results

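The genes described here are the 10 G1 cyclins, cyclin-dependent kinases (CDKs) and CDK inhibitors *Ccnd1*, *Ccnd2*, *Ccnd3*, *Ccne1*, *Ccne2*, *Cdk4*, *Cdk6*, *Cdkn1a*, *Cdkn1b* and *Cdkn2c*. They were chosen by symbol, all 10 were found among the 18926 genes of every deposited table, and all 10 passed the filter on low counts that left 18053 genes to test. RNA came from tumorspheres, the floating clusters that cancer cells form on low-attachment plates, of the S1 line. S1 was derived from a gastric tumour of a ChetPS mouse with floxed alleles of *Trp53* and *Smad4* (F/F) and of *Cdh1* (F/+), so all 4 groups share that background, stable Cas9 and a medium with epidermal growth factor. Control cells carried a non-targeting guide, and *Nf2*-KO, *Rasa1*-KO and double-KO (*Rasa1* and *Nf2*) cells carried guides delivered by lentivirus, with 3 libraries in each group. The labels describe the cells as a monolayer, whereas the study describes tumorspheres. A legend of the study calls its points technical replicates, so p-values here measure the spread between these libraries, which may be technical.

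In the G1 phase of the cell cycle, D-type cyclins bind CDK4 or CDK6 and phosphorylate the retinoblastoma protein, which releases E2F transcription factors. E2F proteins switch on the E-type cyclins, which activate CDK2, and the enzymes that copy DNA. Inhibitors of the Cip/Kip family (p21, p27 and p57, from *Cdkn1a*, *Cdkn1b* and *Cdkn1c*) bind cyclin and CDK complexes, whereas those of the INK4 family (p16, p15, p18 and p19, from *Cdkn2a*, *Cdkn2b*, *Cdkn2c* and *Cdkn2d*) bind CDK4 and CDK6. In epithelial tumours the YAP and RAS pathways, which *Nf2* and *Rasa1* restrain, are known to feed into cyclin D1.

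The targeted genes did not follow the labels in every group. *Nf2* was between 55.4 and 61.0 CPM (counts scaled to library size by TMM) in control and between 13.2 and 14.3 CPM in *Nf2*-KO. It was between 11.6 and 12.1 CPM in *Rasa1*-KO-labelled libraries, and between 56.4 and 62.6 CPM in double-KO-labelled libraries, where it should be low. *Rasa1* was between 60.5 and 78.5 CPM in control, between 30.4 and 34.5 in *Rasa1*-KO-labelled libraries, between 97.2 and 101 in *Nf2*-KO and between 17.7 and 23.3 in double-KO-labelled ones. The deposited tables of *Rasa1*-KO-labelled libraries carry the name of the double-KO and double-KO-labelled ones the name of the *Rasa1*-KO. Groups are therefore named by their labels throughout, and directions for these groups hold for the libraries so labelled.

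Libraries held between 43818139 and 96674463 counts. The unnumbered control library stood apart from control 1 and 2, and library 1 labelled double-KO from its 2 sister libraries, so results that rest on them are given without them. Of 10 epithelial markers 9 were listed, with a sum between 2037 and 4136 FPKM (fragments per kilobase of transcript and mapped reads) that was mostly keratins, whereas the gastric marker *Cldn18* was at most 0.158 FPKM and *Gkn1* was not among the genes analysed here. *Epcam*, an adhesion molecule of epithelia, was at a mean of 29.9 FPKM in control, 4.62 in *Nf2*-KO, 9.4 in *Rasa1*-KO-labelled libraries and 15.5 in double-KO-labelled ones, and fell in all 3 groups (adjusted p of at most 0.017). The mucin *Muc1* fell from 14.6 FPKM to 1.61 in *Nf2*-KO and 2.97 in *Rasa1*-KO-labelled libraries (adjusted p of at most 1.1e-04). The keratins *Krt8*, *Krt18* and *Krt19* rose in *Rasa1*-KO-labelled libraries (log2 fold changes 0.64, 0.83 and 0.70) and were at 0.19, 0.18 and 0.11 in *Nf2*-KO with no call. Of 8 fibroblast markers 5 were listed, of which 4 rose and *Dcn* fell in both *Nf2*-KO and *Rasa1*-KO-labelled libraries. *Col1a1* went from a mean of 1.86 FPKM in control to 55 and 10.4 FPKM, *Col1a2* from 0.0421 to 24 and 5.01, *Pdgfra* from 0.567 to 11.6 and 5, and *Pdgfrb* from 2.15 to 15.5 and 6.4 in these groups (adjusted p of at most 0.028), and *Dcn* from 31.4 to 18 and 13. The summed level of the 5, which *Dcn* dominates in control, was between 15.9 and 48.5 FPKM in control, between 115 and 132 in *Nf2*-KO, between 36.3 and 44.1 in *Rasa1*-KO-labelled libraries and between 7.76 and 9.15 in double-KO-labelled ones. *Tff1* also rose in *Rasa1*-KO-labelled libraries (log2 fold change 2.25). Markers thus moved in the groups in which most member calls fell, but not only there. In double-KO-labelled libraries, where *Ccnd1* was the only member called, *Dcn* and *Epcam* fell (-2.14 and -0.84) and *Krt19* rose (0.72). Of 7 leukocyte markers 2 were listed, with *Ptprc* at most 0.0971 FPKM and a sum between 4.09 and 16.2 FPKM, nearly all of it *Cd68*. *Cd68* rose in *Nf2*-KO (log2 fold change 1.02, adjusted p = 0.0091) and in *Rasa1*-KO-labelled libraries (1.58, adjusted p = 7.2e-04). In double-KO-labelled ones it was at 0.83 with no call (adjusted p = 0.09), and *Ptprc* had no call against control. Of 4 endothelial markers 2 were listed, and their sum was at most 0.39 FPKM in any library. The part of these markers in the results was not tested. In bulk RNA, fewer cells of a type and less RNA per cell cannot be told apart.

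Promoter windows of 300 bases, from 250 before to 50 after a transcription start, were at hand for 7 of the 10 members in RefSeq (GRCm38.p6). They are shown for *Ccne1*, *Cdk4*, *Cdkn1a* and *Cdkn1b*, which are members that were higher in *Nf2*-KO than in control. Capitals mark the letters searched for on both strands, which were GGGCGG (Sp1), GGAATG (TEAD), TGACTCA and TGAGTCA (AP-1), TTTGGCGC, TTTCCCGC, TTTCGCGC and TTTGCCGC (E2F), CTTTGAT (TCF/LEF), TGACGTCA (CRE) and ACATGTC (the core of a p53 half-site). The last was added after the promoters had been read. The *Ccne1* window is chr7:38107441-38107740 (minus strand), that of *Cdk4* chr10:127063285-127063584 (plus strand), that of *Cdkn1b* chr6:134920151-134920450 (plus strand), and the more upstream of the pair for *Cdkn1a* chr17:29090729-29091028 (plus strand).
*Ccne1*: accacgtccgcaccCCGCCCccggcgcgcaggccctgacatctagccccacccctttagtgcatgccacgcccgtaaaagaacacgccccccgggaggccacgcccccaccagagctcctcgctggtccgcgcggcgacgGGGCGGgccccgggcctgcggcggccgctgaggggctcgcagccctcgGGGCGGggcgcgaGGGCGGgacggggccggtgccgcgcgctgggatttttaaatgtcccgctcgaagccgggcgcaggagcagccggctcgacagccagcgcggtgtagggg
*Cdk4*: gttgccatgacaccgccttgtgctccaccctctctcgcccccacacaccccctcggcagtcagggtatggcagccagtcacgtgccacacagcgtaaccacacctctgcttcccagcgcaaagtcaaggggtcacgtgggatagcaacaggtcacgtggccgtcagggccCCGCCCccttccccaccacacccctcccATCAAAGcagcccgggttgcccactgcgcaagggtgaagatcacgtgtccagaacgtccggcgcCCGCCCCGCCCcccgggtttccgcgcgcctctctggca
*Cdkn1b*: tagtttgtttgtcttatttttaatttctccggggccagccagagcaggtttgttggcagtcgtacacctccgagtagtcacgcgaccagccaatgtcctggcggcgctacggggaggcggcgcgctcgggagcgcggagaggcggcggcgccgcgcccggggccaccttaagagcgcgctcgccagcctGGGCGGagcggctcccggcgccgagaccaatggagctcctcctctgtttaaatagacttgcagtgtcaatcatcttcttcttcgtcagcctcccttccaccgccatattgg
*Cdkn1a*: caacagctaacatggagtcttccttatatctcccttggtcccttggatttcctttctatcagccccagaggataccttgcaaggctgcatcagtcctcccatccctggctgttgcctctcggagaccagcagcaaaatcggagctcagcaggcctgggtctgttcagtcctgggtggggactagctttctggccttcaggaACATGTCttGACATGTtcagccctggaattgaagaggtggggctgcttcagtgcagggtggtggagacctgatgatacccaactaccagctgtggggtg
The Sp1 letters stood 4 times in the *Ccne1* window, 3 times in that of *Cdk4* and once in that of *Cdkn1b*, and 35.7% of 32851 promoter windows of the same length hold them. In *Cdk4* 2 of the 3 matches overlap by 1 base. The *Cdk4* window also holds the TCF/LEF letters, which are in 3.73% of all windows. The upstream *Cdkn1a* window holds the p53 half-site core in both orientations, and 2.01% of all windows have it. Over the 10 windows of the 7 members the TEAD letters were found in 1, the downstream window of *Ccnd3*, against 14.7% of all windows. None of the 10 windows held the AP-1 letters (5.2% of all windows), the E2F letters (2.26%) or the CRE letters (1.79%). These matches describe letters in a window and not binding sites.

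Against control, 6 of the 10 members were higher in *Nf2*-KO, 4 in *Rasa1*-KO-labelled libraries and 1 in double-KO-labelled libraries, and none was lower (edgeR quasi-likelihood test, adjusted p under 0.05). The background in these comparisons was 20.6% of all tested genes higher and 22.2% lower in *Nf2*-KO, 19.7% higher and 22.2% lower in *Rasa1*-KO-labelled libraries, and 4% higher and 2.46% lower in double-KO-labelled ones. The 4 genes higher in *Rasa1*-KO-labelled libraries (*Ccnd1*, *Ccne2*, *Cdk4* and *Cdkn1b*) were also among the 6 of *Nf2*-KO, which had *Ccne1* and *Cdkn1a* in addition. *Cdk6* was the only member with a lower level at an unadjusted p under 0.05. These comparisons share their control libraries. The number in the table names, which control and double-KO-labelled libraries share, was also used as a block. With it, 2 members (*Ccnd1* and *Cdkn1a*) were called between these groups, both higher, where 8.03% of all tested genes were higher and 5.82% lower. No member passed the rule of the study, a fold change of at least 3 with a raw p under 0.05, which 11.4%, 9.27% and 2.03% of all tested genes passed in *Nf2*-KO, *Rasa1*-KO-labelled libraries and double-KO-labelled ones.

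**Figure D1:**
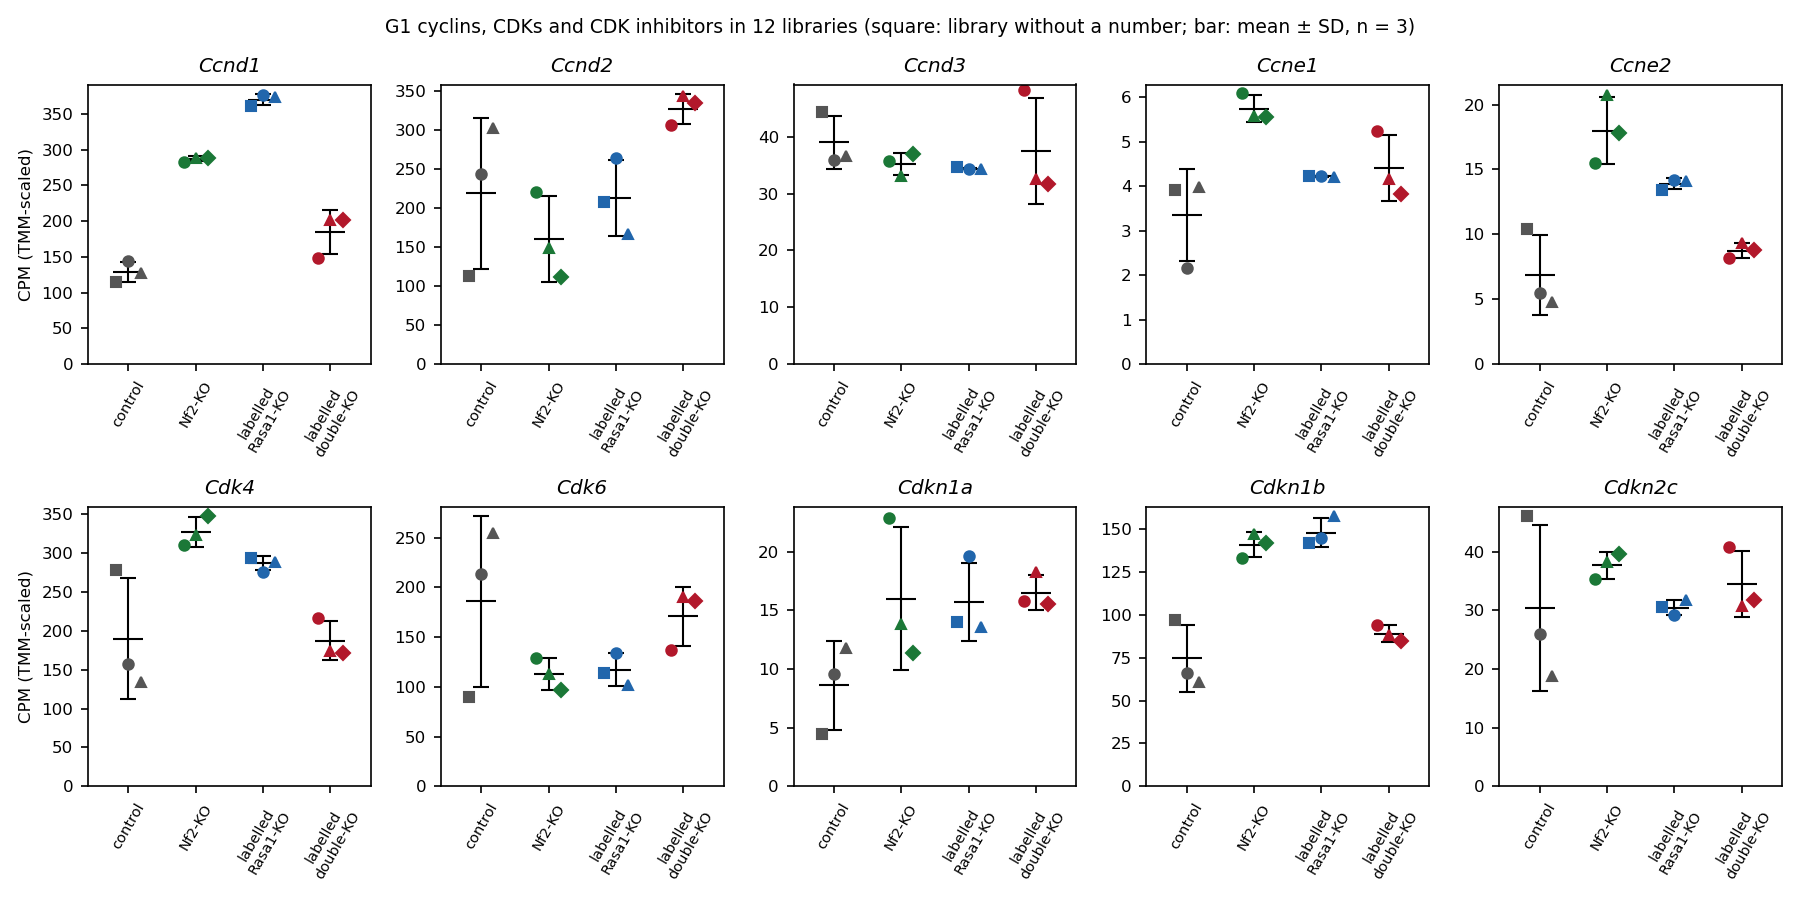
Level of each member in every library in CPM (vertical axis, from 0), by group, with the mean ± SD of 3 libraries as bars and the libraries without a number as squares. *Ccnd1* lies between 283 and 376 CPM in *Nf2*-KO and *Rasa1*-KO-labelled libraries and at 202 CPM or below elsewhere, whereas *Ccnd3* stays between 31.7 and 48.2 CPM in all 12.

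**Figure D2:**
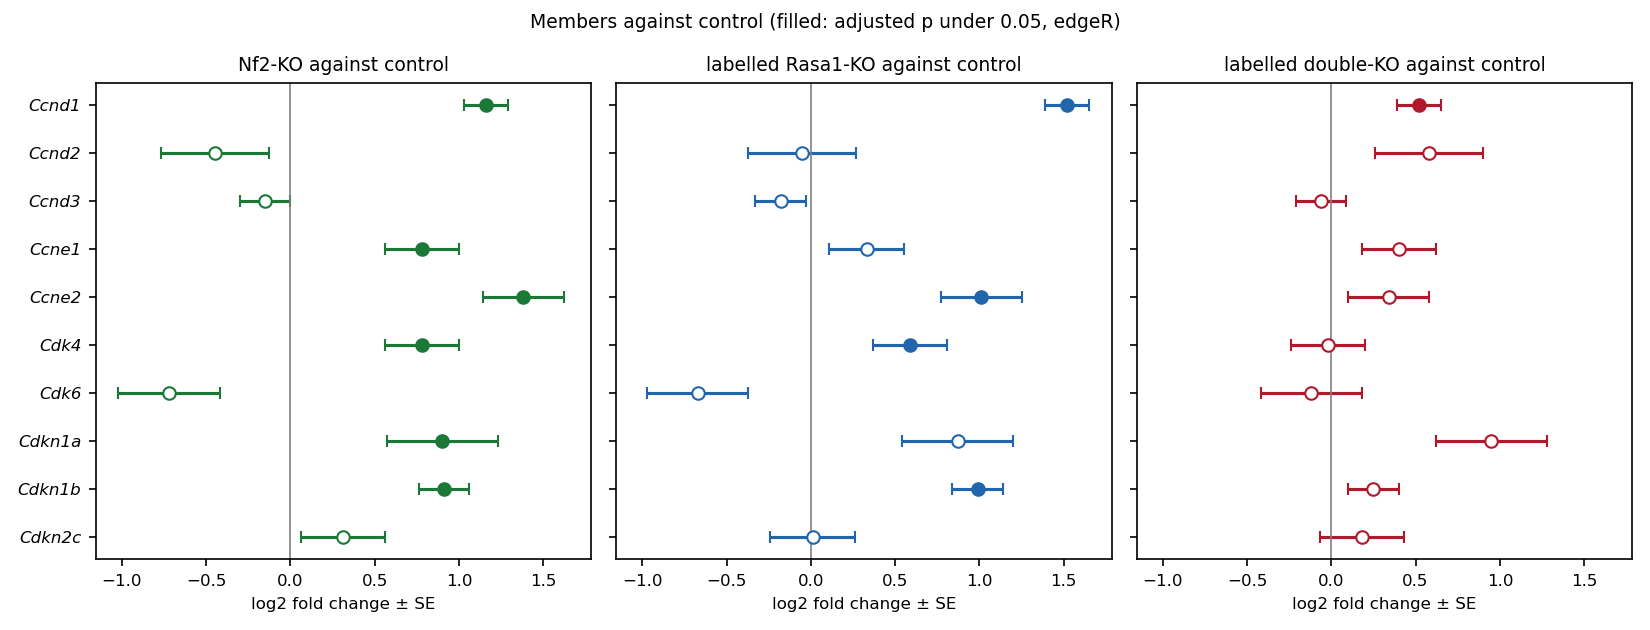
Log2 fold change against control (horizontal axis) ± SE of the 10 members in the 3 comparisons, with filled points at an adjusted p under 0.05 in edgeR. Filled points number 6 for *Nf2*-KO, 4 for *Rasa1*-KO-labelled libraries and 1 for double-KO-labelled ones, and all lie to the right of 0.

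Among the D-type cyclins, *Ccnd1* (cyclin D1, chromosome 7, 144929931 to 144939831, minus strand) differed most. It was at 115, 144 and 127 CPM in control, at 283, 288 and 289 CPM in *Nf2*-KO, at 361, 376 and 373 CPM in *Rasa1*-KO-labelled libraries and at 149, 202 and 202 CPM in double-KO-labelled ones. No 2 groups overlapped. *Ccnd1* rose 2.23-fold in *Nf2*-KO (log2 fold change 1.16 ± 0.13 SE, adjusted p = 2.4e-05) and 2.88-fold in *Rasa1*-KO-labelled libraries (1.52 ± 0.13, adjusted p = 5.1e-06). The rise of 1.43-fold in double-KO-labelled libraries had an adjusted p of 0.031, and this call was lost in 14 of 22 other analyses. It was lost on leaving out any single library except the control libraries without a number and 1, and library 1 labelled double-KO. These libraries were 2.01-fold lower than *Rasa1*-KO-labelled ones (log2 fold change -1.0 ± 0.13, adjusted p = 1.7e-04) and 1.55-fold lower than *Nf2*-KO (adjusted p = 0.0024). The *Rasa1*-KO-labelled libraries and *Nf2*-KO are neighbours in the order of the levels that did not differ by the test (log2 difference 0.37 ± 0.13, adjusted p = 0.16).

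*Ccnd2* (cyclin D2, chromosome 6, 127125162 to 127152188, minus strand) had another order. Its level was 113, 243 and 302 CPM in control, 220, 149 and 112 CPM in *Nf2*-KO, 207, 264 and 167 CPM in *Rasa1*-KO-labelled libraries and 306, 343 and 334 CPM in double-KO-labelled ones. The double-KO-labelled libraries all lay above those of the other 3 groups, which overlapped with each other. The single difference that passed the test was the 2.05-fold higher level in double-KO-labelled libraries than in *Nf2*-KO (log2 fold change 1.03 ± 0.33, adjusted p = 0.031). This call was lost without *Nf2*-KO 2, *Nf2*-KO 3 or any 1 of the double-KO-labelled libraries (0.83 to 1.33 over all omissions). Against control the log2 fold change was -0.45 ± 0.32 in *Nf2*-KO (adjusted p = 0.27), and without the unnumbered control library it was -0.77 (adjusted p = 0.014).

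*Ccnd3* (cyclin D3, chromosome 17, 47505051 to 47599689, plus strand) was between 31.7 and 48.2 CPM in all 12 libraries. Its log2 fold changes against control were -0.15 ± 0.15, -0.18 ± 0.15 and -0.06 ± 0.15 in *Nf2*-KO, *Rasa1*-KO-labelled libraries and double-KO-labelled ones, with adjusted p of at least 0.37. The highest values came from the unnumbered control library (44.4 CPM) and library 1 labelled double-KO (48.2 CPM). No pair of groups passed the test for *Ccnd3*.

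Per length of transcript, the 3 D-type cyclins together reached 109 ± 8.04 FPKM (SD, n = 3) in *Nf2*-KO, against 85.9 ± 19 in control, 132 ± 9.9 in *Rasa1*-KO-labelled libraries and 107 ± 7.1 in double-KO-labelled ones. *Ccnd1* held between 33.2% and 42.5% of this sum in control, and between 34.3% and 43.3% in double-KO-labelled libraries. In *Nf2*-KO it held between 57.8% and 67.3%, and in *Rasa1*-KO-labelled libraries between 61.7% and 68.7%. The share of *Ccnd2* was between 26.4% and 49.0% in control and between 43.7% and 44.8% in double-KO-labelled libraries, against 16.4% to 28.3% in *Nf2*-KO and 19.3% to 27.6% in *Rasa1*-KO-labelled ones. Cyclin D1 thus led the D-type transcripts in all 6 libraries of *Nf2*-KO and labelled *Rasa1*-KO, whereas *Ccnd2* was above it in 5 of the other 6. These shares are a description and were not tested.

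**Figure D3:**
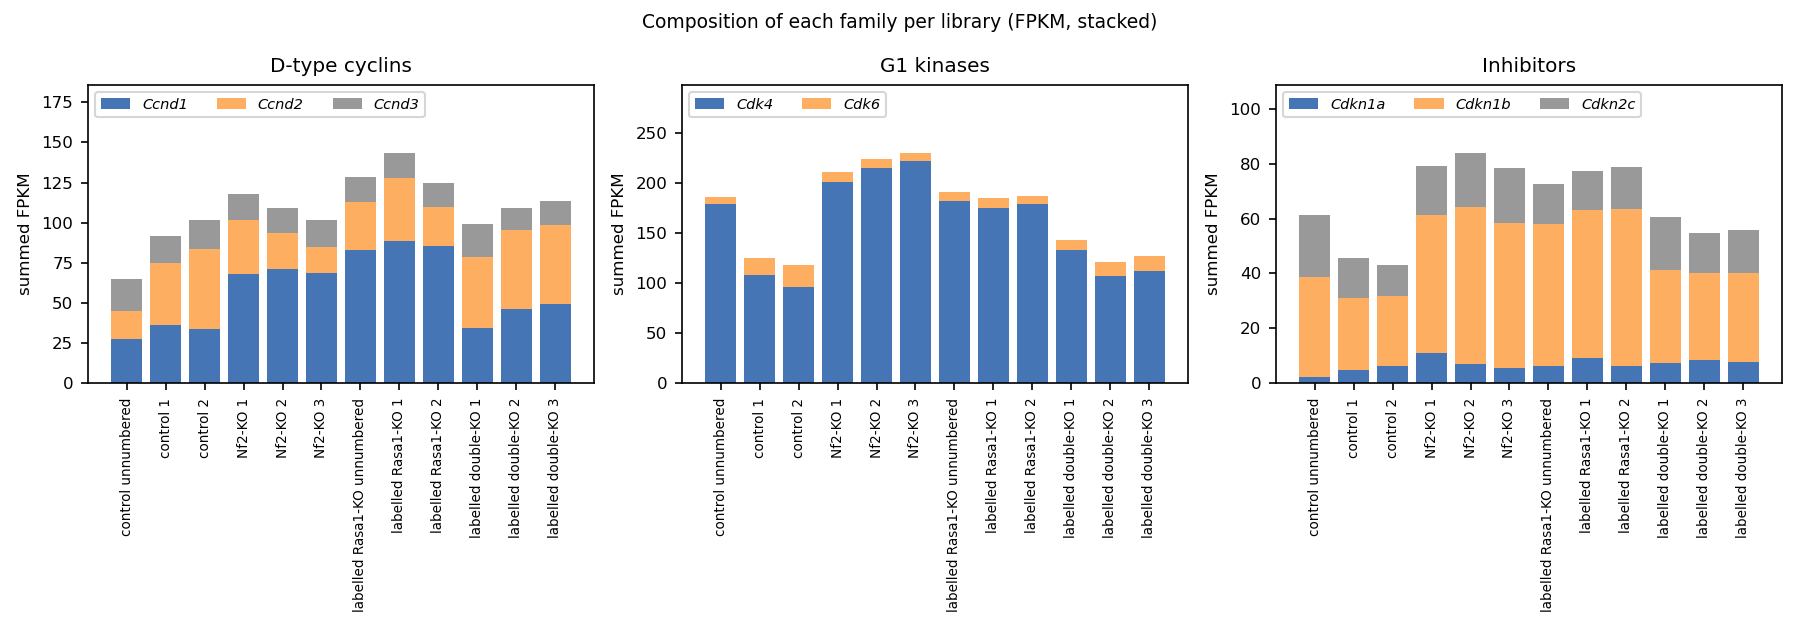
Stacked FPKM (vertical axis, from 0) of the D-type cyclins, the G1 kinases and the 3 member inhibitors in each of the 12 libraries (horizontal axis). *Ccnd1* takes 57.8% or more of the D-type sum in *Nf2*-KO and *Rasa1*-KO-labelled libraries and 43.3% or less in the other 6, and *Cdk4* takes 81.5% or more of the kinase sum in every library.

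The E-type cyclins, which activate CDK2 at the entry into S phase, were far less abundant. Their summed level was between 2.78 and 9.34 FPKM, and *Ccne2* held between 43.5% and 71.4% of it. *Ccne2* (cyclin E2, chromosome 4, 11190433 to 11204779, plus strand) was at 10.4, 5.45 and 4.76 CPM in control, at 15.5, 20.7 and 17.8 CPM in *Nf2*-KO, at 13.4, 14.2 and 14.1 CPM in *Rasa1*-KO-labelled libraries and at 8.19, 9.3 and 8.77 CPM in double-KO-labelled ones. *Nf2*-KO and *Rasa1*-KO-labelled libraries lay above all others without overlap. *Ccne2* rose 2.6-fold in *Nf2*-KO (log2 fold change 1.38 ± 0.24, adjusted p = 8.6e-04) and 2.01-fold in *Rasa1*-KO-labelled libraries (1.01 ± 0.24, adjusted p = 0.0066). Fitted with these 6 libraries alone, the second call was lost (adjusted p = 0.052). The double-KO-labelled libraries were 2.05-fold lower than *Nf2*-KO (adjusted p = 0.0066), and against control their log2 fold change was 0.34 ± 0.24 (adjusted p = 0.46). The unnumbered control library was 2.04 times the mean of the other 2, and without it the log2 fold changes were 1.82, 1.44 and 0.78 in the 3 groups, the last with an adjusted p of 0.0019.

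*Ccne1* (cyclin E1, chromosome 7, 38097984 to 38107490, minus strand), whose promoter is printed above, was at 3.91, 2.15 and 3.99 CPM in control and at 6.09, 5.58 and 5.56 CPM in *Nf2*-KO. It was at 4.22, 4.23 and 4.2 CPM in *Rasa1*-KO-labelled libraries and at 5.25, 4.16 and 3.83 CPM in double-KO-labelled ones. All 3 *Nf2*-KO libraries lay above the other 9. *Ccne1* rose 1.72-fold in *Nf2*-KO (log2 fold change 0.78 ± 0.22, adjusted p = 0.014), a call lost when only the groups compared were fitted (0.75, adjusted p = 0.073). Its log2 fold changes in *Rasa1*-KO-labelled libraries (0.33 ± 0.22, adjusted p = 0.24) and double-KO-labelled ones (0.40 ± 0.22, adjusted p = 0.33) did not pass the test. The difference between *Nf2*-KO and *Rasa1*-KO-labelled libraries had an adjusted p of 0.37.

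Of the kinases, *Cdk4* (chromosome 10, 127063535 to 127067288, plus strand) was at 279, 158 and 134 CPM in control and at 310, 323 and 348 CPM in *Nf2*-KO. It was at 294, 276 and 289 CPM in *Rasa1*-KO-labelled libraries and at 216, 174 and 172 CPM in double-KO-labelled ones. The unnumbered control library lay inside the range of *Rasa1*-KO-labelled libraries, and the other 2 controls far below it. *Cdk4* rose 1.72-fold in *Nf2*-KO (log2 fold change 0.78 ± 0.22, adjusted p = 0.014) and 1.51-fold in *Rasa1*-KO-labelled libraries (0.59 ± 0.22, adjusted p = 0.048). Both calls were lost when only the groups compared were fitted (adjusted p of 0.073 and 0.16). The second was also lost on leaving out any single library except the unnumbered control (log2 fold changes between 0.39 and 0.98), and the first without control 1 (0.58). Without the unnumbered control the log2 fold changes were 1.17 and 0.98, and the value in double-KO-labelled libraries went from -0.02 to 0.36 (adjusted p = 0.032). The double-KO-labelled libraries were 1.74-fold lower than *Nf2*-KO (log2 fold change -0.80, adjusted p = 0.016), a call lost without *Nf2*-KO 3 or library 2 or 3 labelled double-KO (-0.92 to -0.75 over all omissions).

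*Cdk6* (chromosome 5, 3341004 to 3531008, plus strand) was at 89.4, 213 and 255 CPM in control, at 129, 113 and 96.5 CPM in *Nf2*-KO, at 114, 134 and 102 CPM in *Rasa1*-KO-labelled libraries and at 137, 190 and 186 CPM in double-KO-labelled ones. The unnumbered control library was the lowest of all 12, and control 1 and 2 were the highest. The log2 fold change against control was -0.72 ± 0.30 in *Nf2*-KO (adjusted p = 0.075, unadjusted 0.036) and -0.67 ± 0.30 in *Rasa1*-KO-labelled libraries (adjusted p = 0.094, unadjusted 0.047). Without that library these values were -1.04 (adjusted p = 1.5e-04) and -1.0 (adjusted p = 2.2e-04). Per length, *Cdk6* held between 3.18% and 5.42% of the summed FPKM of both kinases in *Nf2*-KO and *Rasa1*-KO-labelled libraries, between 6.98% and 11.5% in double-KO-labelled ones and 3.66%, 13.7% and 18.5% in control.

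Of the inhibitors, *Cdkn1b* (p27, chromosome 6, 134920401 to 134925525, plus strand) was at 97.1, 66.3 and 60.7 CPM in control, at 133, 147 and 142 CPM in *Nf2*-KO, at 142, 145 and 158 CPM in *Rasa1*-KO-labelled libraries and at 94.2, 88.3 and 84.6 CPM in double-KO-labelled ones. As with *Ccnd1*, *Nf2*-KO and *Rasa1*-KO-labelled libraries lay above all others. *Cdkn1b* rose 1.88-fold in *Nf2*-KO (log2 fold change 0.91 ± 0.15, adjusted p = 5.6e-04) and 1.99-fold in *Rasa1*-KO-labelled libraries (0.99 ± 0.15, adjusted p = 3.8e-04). It was 1.67-fold lower in double-KO-labelled libraries than in *Rasa1*-KO-labelled ones (adjusted p = 0.0039) and 1.58-fold lower than in *Nf2*-KO (adjusted p = 0.0061). Against control double-KO-labelled libraries had a log2 fold change of 0.25 ± 0.15 (adjusted p = 0.37), and of 0.49 without the unnumbered control library (adjusted p = 0.0022).

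*Cdkn1a* (p21, chromosome 17, 29090979 to 29100722, plus strand), a p53 target gene, was low in this line. Its level was 4.43, 9.56 and 11.8 CPM in control, 22.9, 13.8 and 11.4 CPM in *Nf2*-KO, 14, 19.6 and 13.6 CPM in *Rasa1*-KO-labelled libraries and 15.8, 18.3 and 15.5 CPM in double-KO-labelled ones. The *Rasa1*-KO-labelled and the double-KO-labelled libraries lay above control without overlap, whereas *Nf2*-KO overlapped with it. The log2 fold changes against control were close to each other, at 0.90 ± 0.33, 0.87 ± 0.33 and 0.95 ± 0.33, with adjusted p of 0.048, 0.054 and 0.13 in *Nf2*-KO, *Rasa1*-KO-labelled libraries and double-KO-labelled ones. The call in *Nf2*-KO was lost without the unnumbered control library (log2 fold change 0.59, adjusted p = 0.065), which had the lowest value of all 12. It was lost on leaving out any single library except control 2 and *Nf2*-KO 3, with values between 0.55 and 1.18. *Trp53*, which encodes p53 and is floxed in the mouse of origin, was between 2.74 and 8.85 CPM in the 12 libraries.

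*Cdkn2c* (p18, chromosome 4, 109660876 to 109666756, minus strand) was at 46.2, 26.0 and 18.9 CPM in control, a span that covered all of the other libraries, which were between 29.2 and 40.9 CPM. No comparison passed the test. Without the unnumbered control library, the log2 fold changes in *Nf2*-KO, *Rasa1*-KO-labelled libraries and double-KO-labelled ones were 0.75, 0.44 and 0.62, with adjusted p of 9.1e-04, 0.021 and 0.01. *Cdkn1b* held most of the summed FPKM of *Cdkn1a*, *Cdkn1b* and *Cdkn2c*, between 69.5% and 72.6% in *Rasa1*-KO-labelled libraries and between 56.4% and 68.5% in the other 9.

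Set against *Rasa1*-KO-labelled libraries, 2 members (*Ccnd1* and *Cdkn1b*) were lower in double-KO-labelled libraries and none was higher, where 14% of all tested genes were lower and 16.3% higher. Set against *Nf2*-KO, 4 (*Ccnd1*, *Ccne2*, *Cdk4* and *Cdkn1b*) were lower in double-KO-labelled libraries and 1 (*Ccnd2*) higher, against 15.3% and 16.9% of all tested genes. Between *Rasa1*-KO-labelled libraries and *Nf2*-KO no member passed the test in edgeR, against 3.66% of all tested genes, and *Ccnd1* alone had an unadjusted p under 0.05 (0.013). DESeq2 called 0 members and limma on FPKM 0, with no share of all genes given for these fits. Fitted to these 2 groups only, 5 members passed against 25.8% of all genes tested there, with *Ccnd1* higher in *Rasa1*-KO-labelled libraries (log2 fold change 0.36) and *Ccne1*, *Ccne2*, *Cdk4* and *Cdkn2c* lower (-0.45, -0.38, -0.20 and -0.31, adjusted p of at most 0.028). A difference among the 4 groups of any kind was called for 4 members (*Ccnd1*, *Ccne2*, *Cdk4* and *Cdkn1b*) and for 46.3% of all tested genes, so the share of members lay near the background.

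Additivity asks whether the value in the double-KO equals the sum of the log2 changes of both single KOs. By the labels, 5 members departed from it, against 52.4% of all tested genes. *Ccnd1*, *Ccne2*, *Cdk4* and *Cdkn1b* lay below the sum, by -2.16 ± 0.18, -2.05 ± 0.34, -1.39 ± 0.31 and -1.65 ± 0.21 on the log2 scale, and *Cdk6* above it, by 1.27 ± 0.43 (adjusted p of 0.026 for *Cdk6* and at most 0.0029 for the others). The call for *Cdk6* was lost on leaving out any 1 of 8 libraries and in limma on the log2 scale of FPKM with either pseudocount, with values of at least 1.01 over all omissions. With both labels exchanged, as the names of the tables have them, no member departed in edgeR, against 6.41% of all tested genes. The departures were then -0.15 ± 0.18 for *Ccnd1*, -0.71 ± 0.34 for *Ccne2*, -0.17 ± 0.31 for *Cdk4*, -0.18 ± 0.21 for *Cdkn1b* and 0.16 ± 0.42 for *Cdk6*, with adjusted p of at least 0.28. *Ccne1* alone had an unadjusted p under 0.05 (0.019, adjusted p = 0.14), with a departure of -0.84 ± 0.31. Which of both assignments holds cannot be told from the labels. The *Nf2* transcript follows the names of the tables, being at control level in double-KO-labelled libraries and low in *Rasa1*-KO-labelled ones. The *Rasa1* transcript was below control in both. By the labels, the contrast thus takes as double-KO a group in which *Nf2* was not low.

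Fitted only to the groups compared, 3 members (*Ccnd1*, *Ccne2* and *Cdkn1b*) were higher in *Nf2*-KO and 2 (*Ccnd1* and *Cdkn1b*) in *Rasa1*-KO-labelled libraries, with none called in double-KO-labelled ones. The shares of all genes higher and lower in these fits were 13.1% and 15.8%, 11.9% and 13.6%, and 0.051% and 0.051%.

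The unnumbered control library weighed on many of these counts. Without it, 8 members were called in *Nf2*-KO, 6 in *Rasa1*-KO-labelled libraries, 5 in double-KO-labelled ones and 6 between the latter 2, where 61.6%, 60.5%, 30.1% and 46.4% of all tested genes were called. *Ccnd1*, *Ccne2* and *Cdkn1b* in *Nf2*-KO, *Ccnd1* and *Cdkn1b* in *Rasa1*-KO-labelled libraries, and *Ccnd1* and *Cdkn1b* between the latter and double-KO-labelled libraries passed the test in every analysis that kept the labels, other than by the rule of the study.

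The other inhibitors were read beside the members. *Cdkn2a* and *Cdkn2b*, neighbouring genes for INK4 inhibitors and the ARF protein, rose in *Nf2*-KO (log2 fold changes 1.18 ± 0.24 and 1.23 ± 0.24, adjusted p = 0.0019 for both). They rose as well in *Rasa1*-KO-labelled libraries (1.17 ± 0.24 and 1.14 ± 0.24, adjusted p of 0.0023 and 0.0034). *Cdkn2a* was at 51.8, 34.2 and 25.9 CPM in control, between 78.2 and 91.6 CPM in *Nf2*-KO, between 76.8 and 89.9 CPM in *Rasa1*-KO-labelled libraries and between 41.6 and 68.0 CPM in double-KO-labelled ones, so control overlapped with the latter only. *Cdkn2d* (p19) rose 3.12-fold in *Nf2*-KO and 3.11-fold in *Rasa1*-KO-labelled libraries (adjusted p of 1.5e-05 and 2.3e-05), and 1.65-fold in double-KO-labelled ones (log2 fold change 0.72, adjusted p = 0.025). The last call was lost without control 1 or any 1 of the 3 double-KO-labelled libraries (values between 0.60 and 0.93 over all omissions), under the block by titles and with only the groups compared. *Cdkn1c* (p57) was between 0.536 and 0.956 CPM in control, and rose 3.54-fold in *Nf2*-KO and 5.08-fold in *Rasa1*-KO-labelled libraries (adjusted p of 8.4e-04 and 1.9e-04). Of all 7 inhibitor genes, *Cdkn2c* was the one with no call against control in any of the 3 groups.

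**Figure D4:**
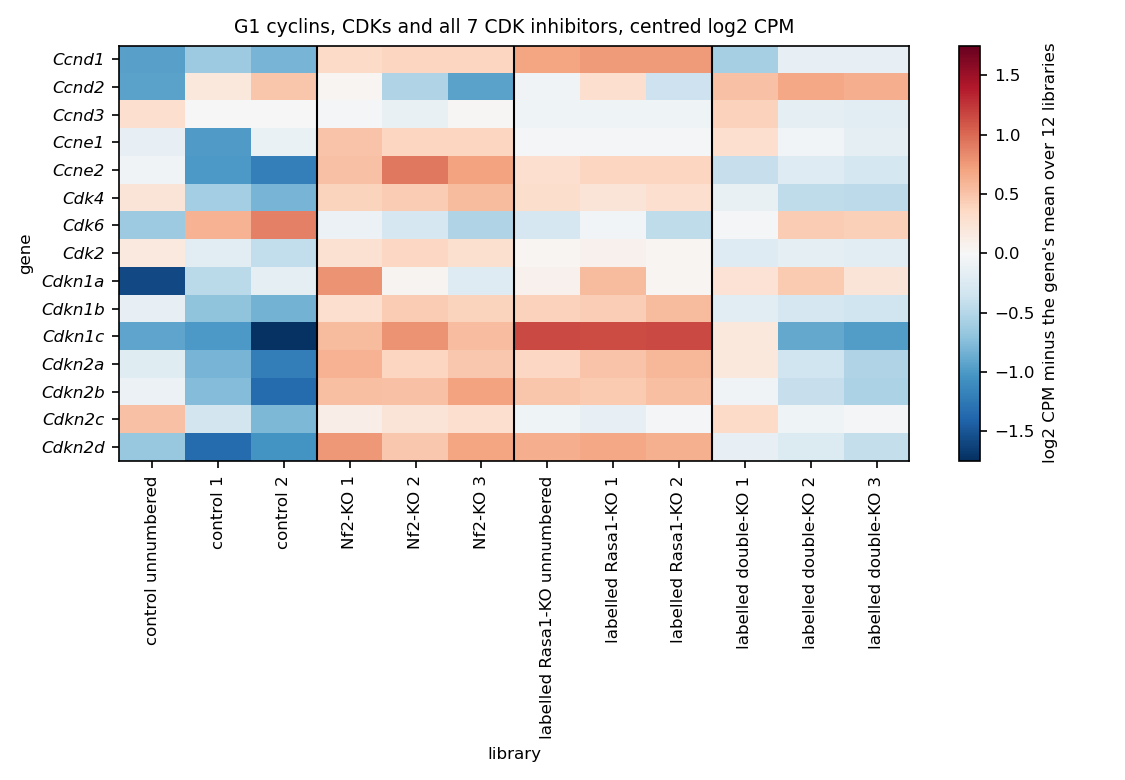
Log2 CPM minus the mean of each gene over the 12 libraries (colour) for the members, *Cdk2* and the remaining CDK inhibitors (rows) in each library (columns, by group). Values run from -1.73 to 1.16, and *Cdkn1c*, *Cdkn2a*, *Cdkn2b* and *Cdkn2d* are above their means in all 6 libraries of *Nf2*-KO and labelled *Rasa1*-KO.

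Further along the G1 network, 34 other genes were listed and all were tested. In *Nf2*-KO 13 were higher and 3 lower (median log2 fold change 0.24, against -0.07 for all tested genes, of which 20.6% were higher and 22.2% lower). In *Rasa1*-KO-labelled libraries 14 were higher and 4 lower (median 0.22, against -0.08, with 19.7% and 22.2% of all genes), and in double-KO-labelled ones 1, *Cdkn2d*, was higher and none lower (median 0.07, against -0.04, with 4% and 2.46%). With only the groups compared these counts were 9 and 2, 7 and 1, and 0 and 0. Without control 1 the second pair was 10 and 1. The block by table names gave 3 higher and none lower in double-KO-labelled libraries. Without the unnumbered control library, 7 were higher in double-KO-labelled libraries, where 30.1% of all tested genes were called in either direction. *Mnat1*, the assembly factor of the CDK-activating kinase, rose 2.57-fold in *Rasa1*-KO-labelled libraries (adjusted p = 5.6e-04). It rose in *Nf2*-KO as well (log2 fold change 1.22). *Tfdp2*, a partner of E2F proteins, *Rbl2*, the pocket protein p130, and *Cdc25a*, a phosphatase that activates CDKs, fell in *Nf2*-KO (log2 fold changes -0.67, -0.54 and -0.38, adjusted p of 0.02, 9.3e-04 and 0.034) and in *Rasa1*-KO-labelled libraries (-0.62, -0.35 and -0.47, adjusted p of 0.03, 0.013 and 0.012). The *Cdc25a* call in *Nf2*-KO was lost on leaving out any 1 of 8 libraries (log2 fold changes between -0.47 and -0.23), and the *Tfdp2* call in *Rasa1*-KO-labelled libraries on leaving out any 1 of 5 (between -0.66 and -0.58). In *Rasa1*-KO-labelled libraries the *Rbl2* call was lost without control 1 or library 2 of that label. The *Cdc25a* call there was lost without the unnumbered library of that label. Both were also lost with only the groups compared (adjusted p of 0.082 and 0.077). The *Tfdp2* call in *Nf2*-KO was lost without *Nf2*-KO 1 or *Nf2*-KO 3. *Cdk2*, the partner of the E-type cyclins, rose 1.34-fold in *Nf2*-KO (adjusted p = 0.021), a call lost without control 1, *Nf2*-KO 2 or *Nf2*-KO 3. *Rb1* was between 15.5 and 32.0 CPM in the 12 libraries with no call against control. *E2f1* was between 4.5 and 9.23 CPM, with no call against control either, and it was 1.57-fold higher in double-KO-labelled libraries than in *Rasa1*-KO-labelled ones (adjusted p = 0.021).

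Of 19 S-phase genes that E2F proteins drive, 17 were higher and none lower in *Nf2*-KO, with a median log2 fold change of 0.76. The remaining genes were *Tyms* (0.10) and *Chaf1a* (0.28). In *Rasa1*-KO-labelled libraries 9 were higher (median 0.37), and in double-KO-labelled ones 4 (median 0.31), again with none lower. With only the groups compared, 13, 4 and 0 were higher in the 3 groups, and the block by table names gave 6 in double-KO-labelled libraries. *Ccna2* (cyclin A2) was at 58.6, 38.2 and 33.6 CPM in control, at 115, 122 and 118 CPM in *Nf2*-KO, at 92.1, 84.8 and 86.0 CPM in *Rasa1*-KO-labelled libraries and at 55.7, 52.7 and 54.4 CPM in double-KO-labelled ones. *Rrm2*, a subunit of ribonucleotide reductase, rose in all 3 groups (log2 fold changes 1.25, 1.49 and 0.71, adjusted p of 6.4e-06, 2.6e-06 and 0.0039). *Gins1*, of the replicative helicase, rose in *Nf2*-KO (1.23, adjusted p = 2.1e-04) and in *Rasa1*-KO-labelled libraries (0.73). The licensing factor *Cdt1* rose in *Rasa1*-KO-labelled libraries (0.80, adjusted p = 9.0e-05), *Nf2*-KO (0.92) and double-KO-labelled libraries (0.43). *Tk1* (thymidine kinase) and *Cdc6* rose in double-KO-labelled libraries (0.76 and 0.59, adjusted p of 0.015 and 0.0096) and in *Nf2*-KO (0.93 and 0.73). *Tk1* rose in *Rasa1*-KO-labelled libraries too (0.55). None of the calls for *Rrm2*, *Tk1*, *Cdc6* and *Cdt1* in double-KO-labelled libraries was kept with only the groups compared (adjusted p of 0.15, 0.23, 0.22 and 0.33). Without the unnumbered control library, 18, 14 and 16 of the 19 were higher in the 3 groups. In that fit 61.6%, 60.5% and 30.1% of all tested genes were called in either direction. The last 2 counts thus depend on that library, as does the share of all genes called. Without library 2 or library 3 labelled double-KO, 2 were higher in that group.

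Of 17 p53 target genes listed, 16 were tested, with 5 higher and 5 lower in *Nf2*-KO (median log2 fold change 0.18), 7 higher and 2 lower in *Rasa1*-KO-labelled libraries (median 0.34), and none higher and 1 lower in double-KO-labelled ones (median 0.01). The counts in *Nf2*-KO lay near the background in either direction. With only the groups compared, 4 and 4, 3 and 2, and 0 and 0 were higher and lower, and the block by table names gave 2 higher and 3 lower in double-KO-labelled libraries. The 7 became 4 without any 1 of control 1 or the 3 *Rasa1*-KO-labelled libraries. Without the unnumbered control 4 were higher in double-KO-labelled libraries, where 30.1% of all tested genes were called in either direction. *Plk2* (a kinase), *Sesn2* and *Sesn1* (sestrins) rose in *Nf2*-KO (log2 fold changes 1.16, 1.06 and 1.00, adjusted p of 1.8e-04, 1.0e-04 and 0.0056). *Sesn2* and *Sesn1* rose in *Rasa1*-KO-labelled libraries too (0.61 and 0.70, the second call lost on leaving out any 1 of 5 libraries). *Zmat3*, *Perp* and *Btg2* fell in *Nf2*-KO (-2.05, -1.23 and -1.08, adjusted p of 0.0034, 3.8e-05 and 1.5e-05). In *Rasa1*-KO-labelled libraries *Bbc3* (PUMA), *Phlda3* and *Plk2* rose (0.85, 0.71 and 0.70, adjusted p of 0.039, 0.012 and 0.0055, the first lost on leaving out any 1 of 10 libraries), and *Zmat3* and *Btg2* fell (-1.97 and -0.97, adjusted p of 0.0046 and 4.6e-05). *Perp* was the 1 gene called in double-KO-labelled libraries (-0.57, adjusted p = 0.035). *Perp* was at 54.7, 38.2 and 44.5 CPM in control and at 25.8, 33.0 and 33.7 CPM in these libraries, and its call was lost on leaving out any 1 of 9 libraries.

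**Figure D5:**
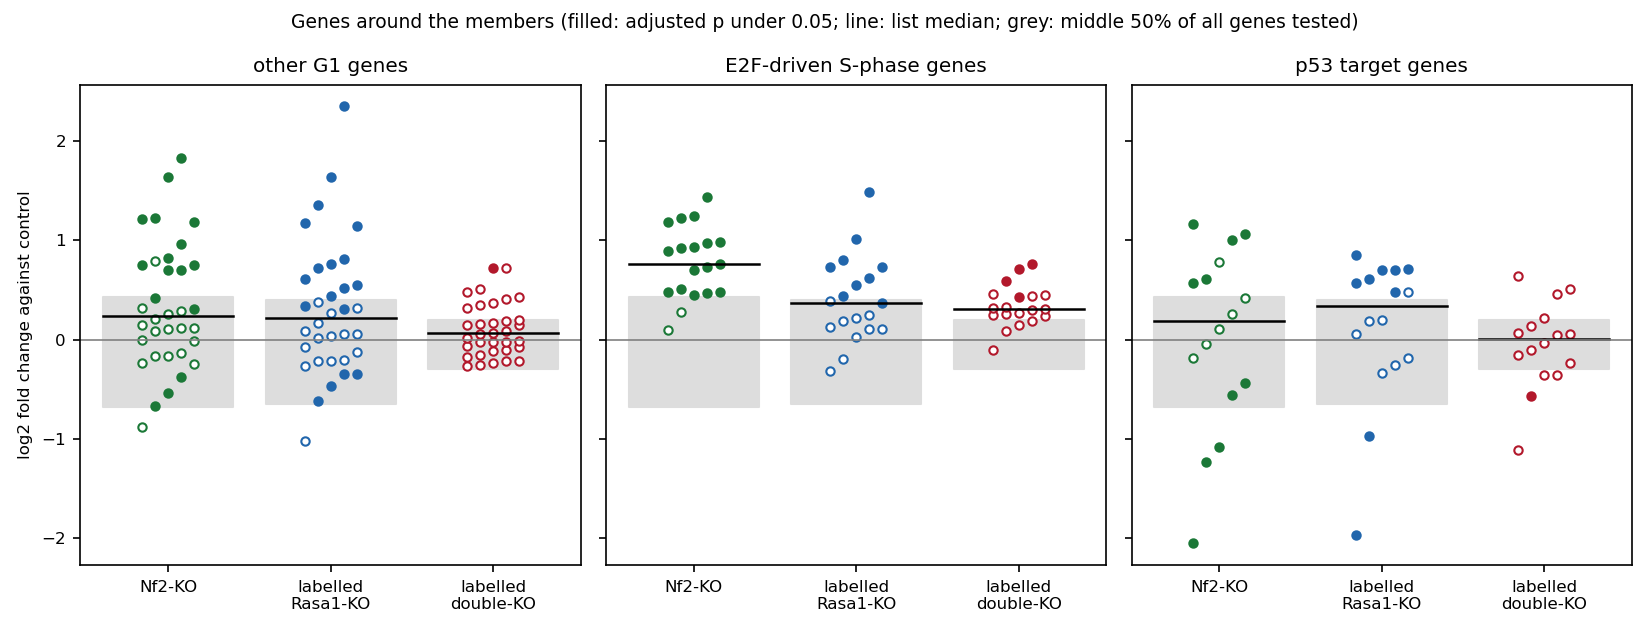
Log2 fold change against control (vertical axis) of 34 other G1 genes, 19 E2F-driven S-phase genes and 16 p53 target genes in the 3 comparisons (horizontal axis), with filled points at an adjusted p under 0.05, a line at the list median and a grey band over the middle 50% of all tested genes. The S-phase list has its median at 0.76 in *Nf2*-KO, above the band, which ends at 0.43.

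By the root mean square difference of centred log2 CPM over the 12 libraries, the genes nearest to each of the 4 members with the widest range among 18052 others were named. *Ccnd1* was nearest to *Ccdc68*, *Dusp5* (a phosphatase of ERK) and *Rubcnl*, at differences of 0.087, 0.107 and 0.118. *Ccne2* was nearest to *Cdca3*, *Cdk1* and *Ccna2*, genes of later cell cycle phases, at 0.113, 0.123 and 0.129. *Ccnd2* was nearest to *Npnt*, *Spry4* (an inhibitor of receptor tyrosine kinase signalling) and *Ppp2r2a*, at 0.161, 0.191 and 0.207, and *Cdkn1a* to *Pcdhac2*, *Phospho1* and *Gm10327*, at 0.228, 0.229 and 0.234.

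*Ccnd3*, *Ccne2* and *Cdk4* overlap *Bysl*, *Ints8* and *Tspan31* on the opposite strand, and *Ccnd2* overlaps *9330179D12Rik*. The library kit keeps strand, but the strand setting of the counting is not given in the sources used here, so reads of these pairs may not have been told apart. None of these 4 neighbours was called against control in any group. *Tspan31* had log2 fold changes of 0.31, 0.12 and -0.10, and *Ints8* of -0.12, -0.31 and -0.10, in *Nf2*-KO, *Rasa1*-KO-labelled libraries and double-KO-labelled ones.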

How the data were processed

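Total RNA depleted of rRNA was sequenced in 12 libraries, 3 in each of 4 groups, which were taken from the labels. Reads were trimmed by the authors (Trimmomatic 0.38), mapped to the mm10 genome (HISAT 2.1.0) and assigned to RefSeq genes (StringTie 2.1.3b). The authors deposited raw read counts, FPKM and TPM per gene and a normalized log2 column, and the last 2 were not used. Libraries held between 43818139 and 96674463 counts.

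Counts were filtered with filterByExpr, scaled by TMM and fitted over all 4 groups with the quasi-likelihood test of edgeR 4.0.16 in R 4.3.3. Benjamini-Hochberg adjustment ran over 18053 genes, and log2 CPM had a prior count of 2. FPKM served for levels between genes and their shares. An exact permutation test, two-sided, has 0.1 as its smallest p with 3 against 3 libraries, so none is given. For each pair of libraries within a group, a chi-square statistic of the counts was taken per gene. Its median over genes was between 2.16 and 38.7. It was scaled by library totals without the TMM factors, and no p-value was computed. On simulated data the code found 194 of 200 genes changed 4-fold among 18053, with 10 others called. The simulation held no library that lies apart, and the members changed at most 2.88-fold against control. It thus checks the code and not how well changes of the size seen in the members are found.

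Alternatives were RLE factors, DESeq2 1.42.0, no filter, only the groups compared, the rule of the study, limma 3.58.1 on log2(FPKM + 1) or log2(FPKM + 0.1), a mean FPKM of at least 1, a replicate block, leaving out each library or both libraries that lie apart, and exchanged labels. Their use for the comparisons with *Nf2*-KO other than control, for additivity and for the gene lists, and the p53 letters, were added after seeing the data. Deviations from the group means were correlated between libraries that share a number. The numbers in the titles gave r between -0.379 and 0.399 over 14 pairs. Those in the table names gave 0.626, 0.313 and 0.444 between control and double-KO-labelled libraries. Deviations within a group cancel out, so these values are not independent of each other and do not establish a pairing.

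All members were named. Of the other lists, up to 3 genes that rose and 3 that fell most per comparison with control were named, if their adjusted p was under 0.05 and the groups did not overlap, with *Cdkn2a*, *Cdkn2b*, *Cdkn2d*, *Rb1*, *Cdk2* and *E2f1* in any case. The nearest genes followed the 4 members with the widest range of group means. The overlapping genes, *Trp53*, *Tyms* and *Chaf1a* were named after their values were seen. The members and the lists were chosen with earlier results of these data known. Positions and promoters are those of RefSeq on GRCm38.p6, with strands from GENCODE. Figures were drawn with matplotlib 3.10.9.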

Additional observations from a re-analysis of the deposited data

Results flagged for a closer look

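By the labels, 5 members departed from additivity (interaction term in edgeR, adjusted p of at most 0.026). Of all tested genes 52.4% departed as well, so the share of members lay near the background. The departure from additivity was -2.16 for *Ccnd1*, -2.05 for *Ccne2*, -1.39 for *Cdk4*, -1.65 for *Cdkn1b* and 1.27 for *Cdk6* on the log2 scale. *Ccnd1* was at a mean of 129 CPM in control, 287 in *Nf2*-KO, 370 in *Rasa1*-KO-labelled libraries and 185 in double-KO-labelled ones. With both labels exchanged the 5 departures were -0.15, -0.71, -0.17, -0.18 and 0.16, with no call. The *Nf2* transcript was at 58.9 ± 3.3 CPM (SD, n = 3) in double-KO-labelled libraries, near the 58.2 ± 2.82 CPM of control, and at 11.9 ± 0.253 CPM in *Rasa1*-KO-labelled ones. It thus follows the table names. With *Nf2* at control level in the double-KO-labelled group, the departures by the labels cannot be read as the effect of losing both genes. Beyond these transcript levels, whether the labels or the table names are right was not tested.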

How the results depend on the processing

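With exchanged labels the groups swap their counts by construction, so 1 member was called in the group then named *Rasa1*-KO and 4 in that then named double-KO against control, 5 and 0 of them against *Nf2*-KO, and 0 departed from additivity. By construction the values of double-KO against *Rasa1*-KO then turn to 1.00, -0.62, -0.12, -0.07, 0.67, 0.61, -0.55, -0.07, 0.74 and -0.18 for the members in their listed order. Against control, *Ccnd2* turns to 0.58 and -0.05 and *Cdk4* to -0.02 and 0.59 in the groups then named *Rasa1*-KO and double-KO, and against *Nf2*-KO *Ccnd1* and *Cdkn1b* turn to 0.37 and 0.08. With only the groups compared, 3, 2 and 0 members were called in *Nf2*-KO, labelled *Rasa1*-KO and labelled double-KO against control, 6 in labelled double-KO against labelled *Rasa1*-KO and 5 in labelled *Rasa1*-KO against *Nf2*-KO. By the rule of the study each of the 4 counts was 0. Counts given anywhere in this section without a share of all genes show dependence on the processing and are not results about the members. That share moved between settings. In labelled double-KO against control it went from 4% higher and 2.46% lower to 30.1% called without the unnumbered control library. DESeq2 gave 2 for labelled double-KO against control, 4 against labelled *Rasa1*-KO and 7 over the 4 groups, and limma 0 for labelled double-KO against control on each FPKM scale and, at a mean FPKM of at least 1, 4 against labelled *Rasa1*-KO. *Cdkn2c* in *Rasa1*-KO-labelled libraries was -0.06 on each FPKM scale.

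The replicate block by titles gave 0 members for labelled double-KO against control, and that by table names 2, with 5 against labelled *Rasa1*-KO, 8 over the 4 groups and 1 for labelled *Rasa1*-KO against *Nf2*-KO. For labelled double-KO against control under the block by table names, 8.03% of all tested genes were higher and 5.82% lower. The block by titles turned *Ccnd2* in labelled *Rasa1*-KO to 0.04, *Ccnd3* and *Cdk4* in labelled double-KO to 0.02 and 0.21, and *Cdkn1a* in labelled double-KO against labelled *Rasa1*-KO to -0.03. The block by table names turned *Cdk4* in labelled double-KO to 0.04, and *Ccnd3*, *Ccne1* and *Cdkn2c* against labelled *Rasa1*-KO to -0.03, -0.09 and -0.04. Without both libraries that lie apart, 4 members were called in labelled double-KO against control, 6 against labelled *Rasa1*-KO, 8 over the 4 groups, 2 in labelled *Rasa1*-KO against *Nf2*-KO and 8 for additivity, *Cdk4* in labelled double-KO was 0.25, and *Ccnd3* and *Ccne1* against labelled *Rasa1*-KO were -0.10 and -0.08.

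Leaving out 1 library at a time, the members called were between 0 and 5 in labelled double-KO against control, 2 and 6 against labelled *Rasa1*-KO, 3 and 8 over the 4 groups, 0 and 1 in labelled *Rasa1*-KO against *Nf2*-KO, 3 and 6 in labelled double-KO against *Nf2*-KO, and 4 and 8 for additivity, each time highest without the unnumbered control. Without the unnumbered control, 30.1% of all tested genes were called in labelled double-KO against control and 46.4% against labelled *Rasa1*-KO. In labelled *Rasa1*-KO against control *Ccnd2* was between -0.36 and 0.24 and *Cdkn2c* between -0.25 and 0.44. In labelled double-KO *Ccnd3* was between -0.28 and 0.07, *Cdk4* between -0.20 and 0.36, *Cdk6* between -0.45 and 0.18 and *Cdkn2c* between -0.05 and 0.62. In labelled double-KO against labelled *Rasa1*-KO *Ccnd3* was between -0.10 and 0.24, *Ccne1* between -0.08 and 0.16 and *Cdkn1a* between -0.02 and 0.26.

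None of the member values that changed sign was called before, except under exchanged labels. The causes were not tested. Of 1145 recomputed member values 963 kept direction and call, 78 lost and 53 gained a call, and 51 changed sign. The lowest count of any member was 158, and libraries held between 43818139 and 96674463 counts, whose part in the calls was not tested.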
